A study of Homo sapiens with 9 samples.

Results

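The genes described here were 44 named targets and partners of ATF4, the transcription factor that cells use to answer a shortage of amino acids and other stresses. They were found by symbol in the deposited gene count table, where all 44 had a row among 36343 gene rows. Of these, 43 had enough counts to be tested, as did 16335 genes in all. The list was drawn up from earlier results of these same libraries, in which many of the genes had moved together in single libraries, so differences among libraries of one gel are given below as a description, without a test. The cells were SKOV-3, an established human epithelial ovarian cancer cell line with amplified ERBB2, seeded for 3 days on hydrogel-coated dishes of 0.5, 4 or 25 kPa. No drug, gene change or other agent is named for any group, so the gels differed by the stiffness given in the labels. Each gel had 3 poly(A)-selected RNA-seq libraries, numbered 1, 2 and 3 on 0.5 and 4 kPa and 2, 3 and 4 on 25 kPa. The titles of the softest-gel libraries write the stiffness in another form, and 0.5 kPa is the value that their stiffness and source labels give. The labels name an independent library for each replicate but not separate cultures, and p-values then measure only the spread between these libraries, which may be technical.

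The 9 libraries held 19609740 to 21033433 gene counts each. ERBB2 stood at 2920 to 4290 CPM (counts scaled to library size) in every library. The summed level of 9 SKOV-3 and epithelial markers was 4890 to 5740 CPM, of which ERBB2 itself made up the larger part. Of markers of other cells, 7 leukocyte and endothelial genes summed to 1.21 to 2.64 CPM, with PTPRC, CD3E and CD68 at 3 counts or fewer in every library. Markers of MCF-7, a breast cancer line, summed to 308 to 336 CPM on 0.5 kPa, 245 to 274 on 4 kPa and 216 to 234 on 25 kPa, with TFF1 at 3 counts or fewer. Fibroblast markers summed to 50.8 to 66.9 CPM over the 9 libraries, with DCN at 3 counts or fewer. By the edgeR test described further on, the MCF-7 markers CA12 (log2 fold change 0.56), GREB1 (1.09) and ESR1 (0.46), the fibroblast markers COL3A1 (2.06) and LUM (0.41) and PECAM1 (1.64) were higher on 0.5 than on 25 kPa, as was ERBB2 (0.44), and VWF (-1.70) and KRT7 (-1.47) were lower. Their part in the levels of the ATF4 genes was not tested. The replicate 3 libraries of 0.5 and 4 kPa stood apart from the other libraries of their gels in the genes described here. Every comparison of gels is therefore given with and without them. These libraries also stood apart over the tested genes as a whole. The chi-square per degree of freedom between the counts of 2 libraries was 3.15 for replicates 1 and 2 of 0.5 kPa. With replicate 3 it was 15.9 and 12.9. On 4 kPa it was 3.03 for replicates 1 and 2, and 24 and 21 with replicate 3. On 25 kPa it was 11.5 and 6.16 with replicate 2 and 3.69 without it.

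ATF4 is made when a kinase of the integrated stress response phosphorylates eIF2, which slows translation of most messages and favours that of ATF4. Among these kinases GCN2 senses uncharged tRNA and PERK senses unfolded protein in the endoplasmic reticulum. ATF4 binds, often as a dimer with a C/EBP protein, to a composite C/EBP and ATF element (CARE) and raises genes that import amino acids, make serine, glycine, asparagine and cysteine, charge tRNAs and, when the stress lasts, limit growth or survival. Since ATF4 is controlled mostly at translation, its messenger RNA level is not a measure of its activity.

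The promoters of these genes were searched for the core of that element, because it is the sequence by which ATF4 is known to find them. RefSeq promoters of GRCh38.p14 (250 bases before to 50 bases after a start) were at hand for 38 of the 44 genes, with 61 start sites. The core TGATGCAA, read on both strands, was found in windows of 11 members, AARS, CARS, CEBPG, CHAC1, FGF21, HERPUD1, JDP2, MARS, NARS, SLC1A4 and SLC1A5. That is 11 of the 61 member windows, against 0.866% of the 35097 windows of all genes. The looser form TGATGNAAN, which includes the core, was in 15 of the 61, against 3.61% of all windows. A cAMP response element (TGACGTCA) was in 1 window, that of PPP1R15A, against 1.85% of all, and the endoplasmic reticulum stress element in none, against 0.0769%. A match is a string of letters in a window and not evidence of binding.

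The 7 core matches that lie wholly upstream of a start are printed here, 5′ to 3′ on the gene's own strand, with the matched letters in capitals, since they show the same letters in genes of unlike function. The last line gives the looser form in ASNS, a standard readout of ATF4.
CHAC1 (chr15:40953246-40953285, plus strand): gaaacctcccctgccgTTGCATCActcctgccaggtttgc
HERPUD1 (chr16:56931950-56931989, plus strand): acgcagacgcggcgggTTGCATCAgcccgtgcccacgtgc
AARS (chr16:70289670-70289709, minus strand): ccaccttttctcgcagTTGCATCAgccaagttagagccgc
FGF21 (chr19:48755454-48755493, plus strand): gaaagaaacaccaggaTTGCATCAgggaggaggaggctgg
CEBPG (chr19:33374055-33374094, plus strand): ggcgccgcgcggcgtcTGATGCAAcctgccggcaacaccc
SLC1A5 (chr19:46784888-46784927, minus strand): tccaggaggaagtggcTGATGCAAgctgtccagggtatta
JDP2 (chr14:75427990-75428021, plus strand): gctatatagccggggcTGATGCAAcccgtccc
ASNS (chr7:97872452-97872492, minus strand): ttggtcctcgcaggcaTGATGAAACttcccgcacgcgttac

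The first base of the match lay 209 bases before the start in CHAC1, 187 in AARS, 176 in HERPUD1, 97 in SLC1A5, 68 in ASNS, 54 in FGF21, 42 in CEBPG and 16 in JDP2. The looser form also lay upstream in ATF3 (191 bases) and GARS (34 bases). In CARS, MARS, SLC1A4 and NARS the match crossed or followed the start. Genes with the same letters had unlike levels: the FGF21 message was at 0 to 2 counts per library, while AARS had 252 to 467 CPM.

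Levels per gene length spanned a wide range. By the deposited FPKM (fragments scaled to gene length and library size), SLC7A5, the leucine importer LAT1, had the highest mean over the 9 libraries at 296, followed by ATF4 at 178, the serine synthesis enzyme PSAT1 at 159 and SLC3A2, the heavy chain that carries LAT1 to the membrane, at 141. The lowest tested were CBS at 0.974, ASNS at 0.300 and the mitochondrial folate enzyme ALDH1L2 at 0.208. The place of ASNS is uncertain, since its gene row and its transcript rows disagree, as shown with its values. FGF21, a stress hormone known mainly from liver, had at most 2 counts in a library, under the 3 counts that a count of 0 allows (0.143 to 0.153 CPM), and was not detectable at this depth.

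Levels of most of these genes differed between libraries of one gel. For each library, the log2 CPM of a gene was compared with the mean of the other 2 libraries of its gel, and this difference is called the deviation. The median deviation of the 43 tested members was 0.72 in replicate 3 of 0.5 kPa (1.65-fold) and 0.80 in replicate 3 of 4 kPa (1.74-fold). The medians of all genes were 0.01 in both. The scaling of libraries keeps the median of all genes about there in every library, so it does not show that other genes were steady. In replicate 2 of 25 kPa it was 0.23 (1.17-fold), and in the other 6 libraries it lay between -0.46 and -0.10. As a bulk measurement, this cannot tell more RNA per cell from more cells that make it.

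Of the 43, 32 deviated by over 0.5 in replicate 3 of 0.5 kPa (5.91% of all genes did) and 35 in replicate 3 of 4 kPa (6.76%), 31 of them in both (1.8%). Deviations over 1 were seen in 15 members in the first of these libraries (0.839% of all genes) and in 14 in the second (1.11%), and in both for 14 of the 46 genes of the whole table that passed this in both (0.282%). In replicate 2 of 25 kPa, 8 members deviated by over 0.5 (4.45%). The highest level of a gel was in replicate 3 for 41 members on 0.5 kPa (39.4% of all genes) and for 41 on 4 kPa (40.8%), and in replicate 2 for 35 on 25 kPa (40.3%). These deviations are what the list was drawn from and are given without a test.

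**Figure D1:**
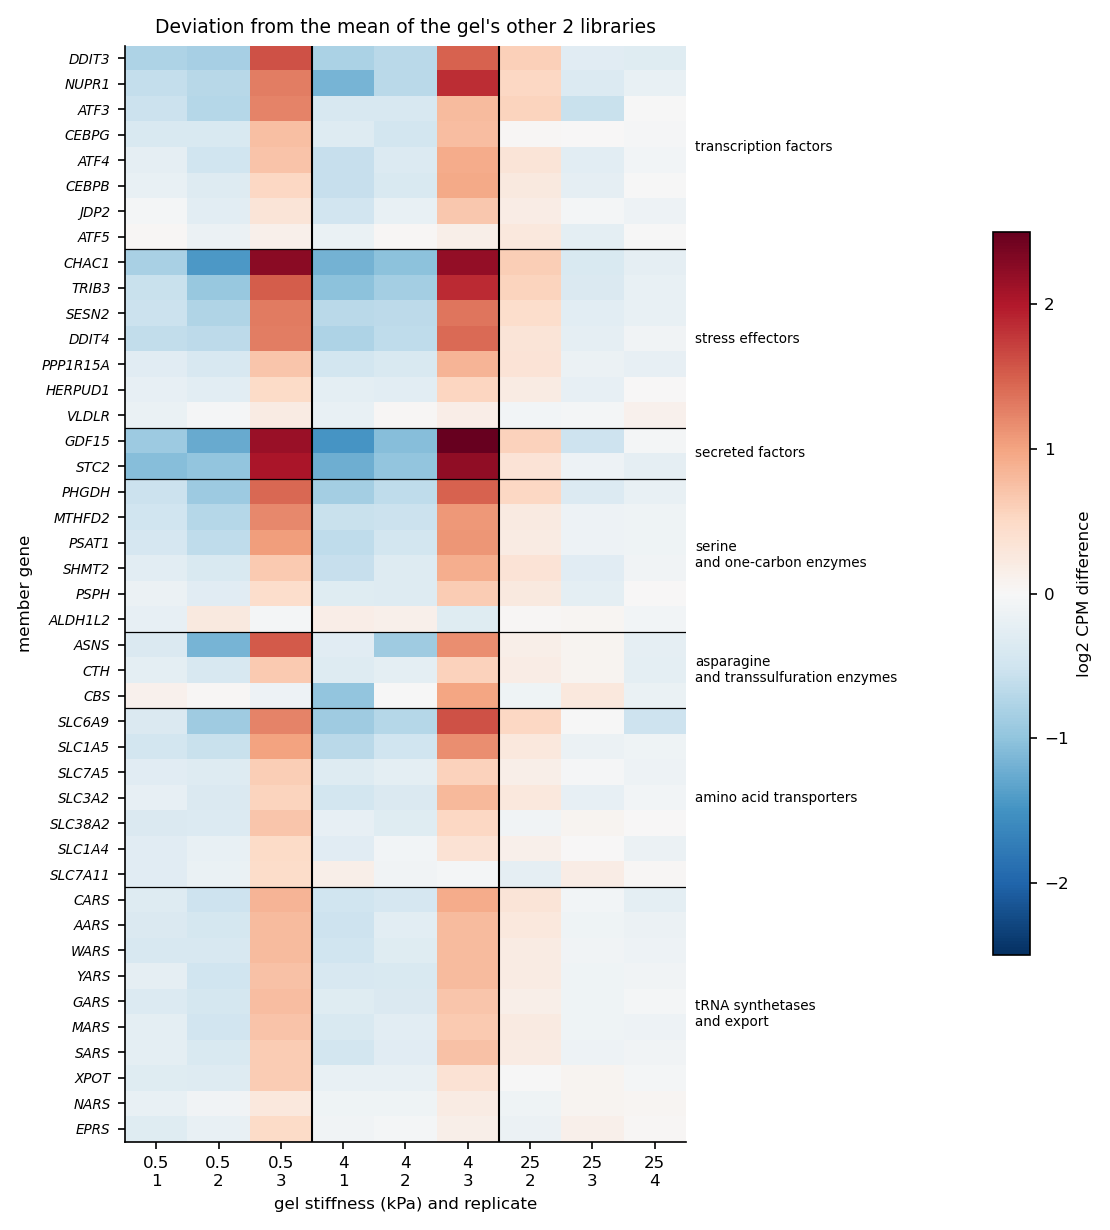
Deviation of each of the 43 tested genes (rows, grouped by role) in each of the 9 libraries (columns, by gel and replicate), as log2 CPM minus the mean of the other 2 libraries of the same gel, red for higher and blue for lower. Replicate 3 of 0.5 and of 4 kPa is red for nearly every gene, with medians of 0.72 and 0.80, and replicate 2 of 25 kPa is a paler red, with a median of 0.23.

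In what follows, values of a gene are CPM after TMM scaling, listed in replicate order within each gel (1, 2 and 3 on 0.5 and 4 kPa, then 2, 3 and 4 on 25 kPa). ATF4 itself was at 371, 328 and 576 on 0.5 kPa, 341, 379 and 683 on 4 kPa and 523, 399 and 436 on 25 kPa. Both replicate 3 libraries lay above all others, replicates 1 and 2 of the softer gels lay below all 25 kPa libraries, and the groups overlapped. ATF4 lies on chromosome 22 (hg38, 39519695 to 39522685).

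Among the transcription factors that act with or after ATF4, DDIT3 (CHOP), which turns a lasting stress response towards cell death, was at 13.5, 13.1 and 40.4 on 0.5 kPa, 14, 14.7 and 39.8 on 4 kPa and 25.0, 16.7 and 16.5 on 25 kPa. DDIT3 overlaps MARS, itself a member, by 982 bases on the opposite strand, and no source used here says whether reads were counted by strand. NUPR1, a small stress-induced chromatin protein, was at 64.4, 61.6 and 153, then 44, 55.3 and 177, then 92.1, 62.0 and 66.8. In both genes the 2 replicate 3 libraries lay above the other 7, which formed a narrower band led by replicate 2 of 25 kPa.

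CEBPB and CEBPG are dimer partners of ATF4 of the C/EBP family. CEBPB was at 114, 107 and 158 on 0.5 kPa, 92.7, 101 and 188 on 4 kPa and 134, 108 and 120 on 25 kPa. CEBPG was at 50.2, 50.3 and 85.2, then 49.0, 46.4 and 81.8, then 60.3, 59.3 and 58.5. For CEBPG the 25 kPa libraries lay close together, above replicates 1 and 2 of both softer gels and below both replicate 3 libraries. JDP2, a repressor of AP-1 sites, ranged from 37.2 to 65.4 CPM over the 9 libraries. ATF5, whose translation is controlled like that of ATF4, ranged from 45.6 to 57.8, with deviations of 0.12 and 0.14 in the 2 replicate 3 libraries, and stood outside the common pattern.

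ATF3, a stress-induced repressor and activator of the same family, was the one member higher in every library of the middle gel than in any other library. It was at 5.11, 4.71 and 11.7 on 0.5 kPa, 18.6, 18.6 and 32.4 on 4 kPa and 10.6, 6.30 and 8.10 on 25 kPa. No 4 kPa library overlapped those of the other gels, and replicate 3 was still the highest of its gel on 0.5 and on 4 kPa.

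The stress effectors had median deviations of 1.28 and 1.33 in the 2 replicate 3 libraries, below those of the secreted factors (2.1 and 2.37). CHAC1, an enzyme that breaks down glutathione, was at 7.98, 5.98 and 33.5 on 0.5 kPa, 8.50, 9.18 and 41.0 on 4 kPa and 20.5, 12.9 and 13.9 on 25 kPa. Its deviations were 2.26 (4.80-fold) and 2.20 (4.6-fold) in the 2 replicate 3 libraries and 0.62 in replicate 2 of 25 kPa. TRIB3, a pseudokinase that binds ATF4 and AKT, was at 61.7, 51.4 and 161, then 59.8, 65.1 and 227, then 117, 77.0 and 83.2. In both genes the order was the same: replicate 3 of 4 kPa, replicate 3 of 0.5 kPa, the 25 kPa libraries led by replicate 2, and then the remaining libraries of the softer gels. The 250 bases before the CHAC1 start (chr15:40953221-40953470, plus strand) are shown because CHAC1 had the largest deviation common to both libraries, with the core in capitals:
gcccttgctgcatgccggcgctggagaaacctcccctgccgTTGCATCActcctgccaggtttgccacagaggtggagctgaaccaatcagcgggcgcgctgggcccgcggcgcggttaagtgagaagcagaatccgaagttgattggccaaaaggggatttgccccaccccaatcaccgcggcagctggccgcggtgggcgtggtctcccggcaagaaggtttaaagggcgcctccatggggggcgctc

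DDIT4 (REDD1) and SESN2 both restrain mTORC1. DDIT4 was at 43.1, 42.3 and 104 on 0.5 kPa, 28.7, 30.7 and 79.1 on 4 kPa and 64.7, 49.9 and 53.3 on 25 kPa. SESN2, a leucine sensor, was at 21.4, 19.2 and 49.7, then 23.3, 23.4 and 58.6, then 29.5, 21.3 and 22.0. For DDIT4 the pair of 4 kPa libraries with replicate numbers 1 and 2 was the lowest of the study, whereas for SESN2 replicates 1 and 2 of both softer gels fell among or near replicates 3 and 4 of 25 kPa. PPP1R15A (GADD34), the phosphatase subunit that reverses eIF2 phosphorylation, was at 40.9, 38.6 and 64.4, then 63.8, 66.4 and 116, then 57.8, 46.3 and 44.8. Its 4 kPa libraries all lay above its 25 kPa libraries. HERPUD1, part of the endoplasmic reticulum degradation machinery, ranged from 83.6 to 133 CPM, and the lipoprotein receptor VLDLR from 24.5 to 29.4, with deviations of 0.20 and 0.16.

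Secreted factors followed the same libraries. GDF15, a circulating stress hormone that acts on appetite, was at 23.9, 20.2 and 98.4 on 0.5 kPa, 16.5, 20.0 and 106 on 4 kPa and 31.6, 19.1 and 23.8 on 25 kPa. STC2, a secreted glycoprotein, was at 6.33, 6.54 and 26.8, then 5.15, 5.80 and 25.6, then 10.3, 8.23 and 7.81. Their deviations, 2.16 and 2.54 for GDF15 and 2.04 and 2.21 for STC2, were 4.12-fold to 5.80-fold.

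**Figure D2:**
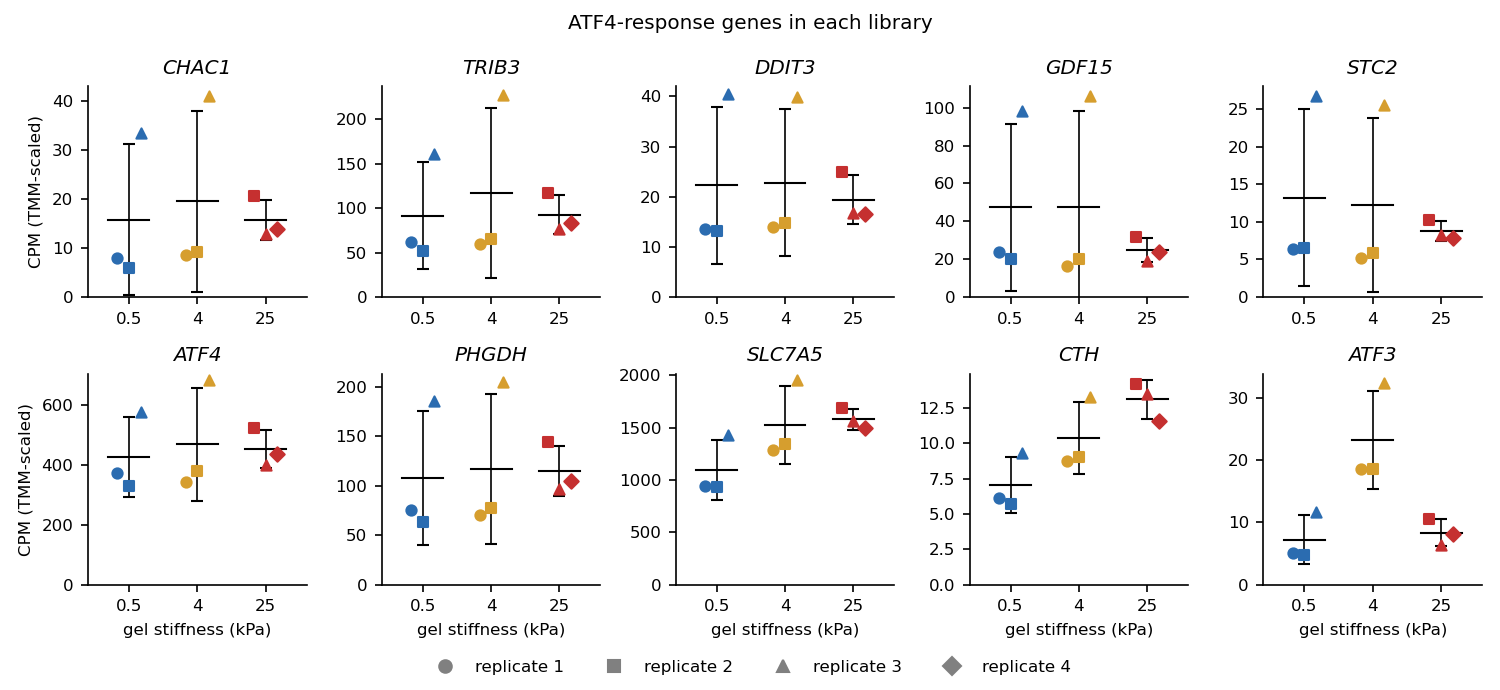
Level of 10 of the genes (CPM after TMM scaling, linear axes from 0) by gel stiffness, with 1 point for each library, its shape giving the replicate number; the horizontal line is the mean and the bar ± 1 SD of the 3 libraries. The triangles on 0.5 and 4 kPa (replicate 3) are the highest points of their gels in all 10 panels, for example 33.5 and 41.0 for CHAC1, and ATF3 alone is higher in every 4 kPa library than in any other.

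Of the enzymes that make serine and one-carbon units, PHGDH, which commits glycolytic carbon to serine, was at 75.1, 63.2 and 186 on 0.5 kPa, 70.3, 77.3 and 205 on 4 kPa and 144, 97.1 and 105 on 25 kPa. PSAT1, the next step, was at 250, 227 and 494, then 250, 271 and 556, then 397, 341 and 344. MTHFD2, the mitochondrial folate dehydrogenase, was at 103, 92.9 and 226, then 112, 113 and 238, then 172, 146 and 147. All 3 genes shared one layout: replicates 1 and 2 of both softer gels were lowest, the 25 kPa libraries did not overlap them, and the 2 replicate 3 libraries were highest. SHMT2, which makes glycine from serine in mitochondria, ranged from 139 to 277 CPM, and PSPH, the last step of serine synthesis, from 12.8 to 23.6. ALDH1L2 ranged from 1.52 to 1.93 CPM with deviations of -0.04 and -0.30, and overlaps C12orf45 over 84.0% of its span on the opposite strand.

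CTH, which makes cysteine in the transsulfuration pathway, was at 6.13, 5.73 and 9.34 on 0.5 kPa, 8.75, 9.04 and 13.3 on 4 kPa and 14.2, 13.5 and 11.6 on 25 kPa. All 25 kPa libraries lay above all 0.5 kPa libraries, and replicate 3 was the highest of both softer gels. CBS, the enzyme before it in the pathway, did not share this: it was at 8.27, 7.91 and 7.38, then 3.65, 5.80 and 9.24, then 5.48, 6.5 and 5.28. Its 0.5 kPa libraries all lay above its 25 kPa libraries. CBS has a near-identical copy, CBSL, which counting could confuse with it, and CBSL was at 4.33, 3.40 and 5.65, then 12.3, 4.22 and 8.99, then 7.59, 4.17 and 14.9. The CBS values are therefore uncertain.

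ASNS, asparagine synthetase and a standard readout of ATF4, needs care. Its gene row held 22, 14 and 57 counts on 0.5 kPa, 24, 18 and 50 on 4 kPa and 21, 20 and 18 on 25 kPa. The transcript rows of ASNS in the second deposited table, which hold the authors' estimated counts, summed to 2495, 2343 and 6989, then 1979, 2471 and 7239, then 4031, 4140 and 3892. The mean sum was 146 times the mean of the gene row, whereas the median ratio over 15681 genes was 3.41 and their 5th to 95th percentiles were 0.774 to 5.55. By the positions given with the gene counts, ASNS (chr7, minus strand) lies wholly within AC079781.5 (97851688 to 97972985, same strand). The effect of this overlap on the gene row was not tested. Both tables put the 2 replicate 3 libraries highest. They differed in the 25 kPa libraries, which lay above replicates 1 and 2 of the softer gels in the transcript sums and among them in the gene row. The transcript sums are uneven for some other members. Those of GARS ran from 360 to 7808, where its gene counts ran from 2053 to 3874. The place of the 25 kPa libraries for ASNS is therefore uncertain. The pseudogene ASNSP1 had 55 and 39 counts in the 2 replicate 3 libraries and 3 to 17 in the other 7.

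**Figure D3:**
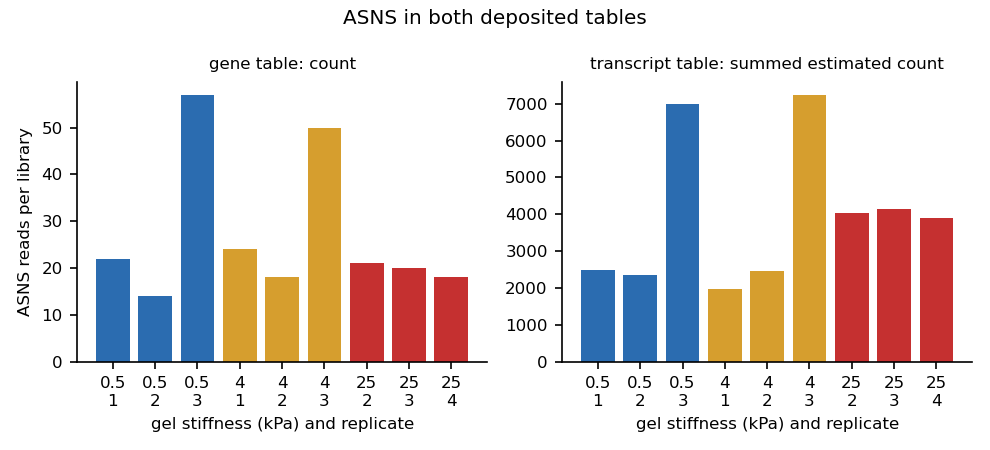
Reads given to ASNS in each library (bars from 0, coloured by gel) in the gene table (left, counts) and summed over its transcripts in the transcript table (right, estimated counts). Replicate 3 of 0.5 and 4 kPa is highest in both, at 57 and 50 in the gene table and 6989 and 7239 in the transcript table, on axes of unlike scale.

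Amino acid transporters were divided. SLC7A5 was at 945, 929 and 1430 on 0.5 kPa, 1290, 1340 and 1960 on 4 kPa and 1690, 1560 and 1500 on 25 kPa. SLC3A2 was at 571, 531 and 813, then 584, 611 and 1050, then 921, 740 and 788. For SLC7A5 every 25 kPa library lay above every 0.5 kPa library, while for SLC3A2 replicate 3 of 0.5 kPa fell within the 25 kPa range. SLC1A5 (ASCT2), a glutamine exchanger, was at 131, 125 and 258, then 131, 142 and 306, then 211, 175 and 178. SLC1A4, which carries alanine, serine and cysteine, was at 45.6, 47.5 and 64.7, then 50, 55.2 and 67.4, then 61.0, 57.9 and 53.9. SLC6A9, a glycine importer, was at 5.11, 4.00 and 10.8, then 3.6, 3.93 and 11.6, then 6.33, 4.93 and 3.88. In these 3 genes the replicate 3 libraries were again the highest, by 2.02-fold and 2.25-fold for SLC1A5 over the mean of their gels' others.

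SLC38A2 (SNAT2), which takes up small neutral amino acids, was at 307, 309 and 501 on 0.5 kPa, 311, 297 and 435 on 4 kPa and 339, 363 and 352 on 25 kPa. SLC7A11, the cystine importer of system xc-, was at 438, 464 and 621, then 455, 408 and 417, then 403, 486 and 452. Replicate 3 of 0.5 kPa was its highest library, with a deviation of 0.46, but replicate 3 of 4 kPa deviated by -0.05, so SLC7A11 followed the pattern in 1 of the 2 libraries.

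The 9 aminoacyl-tRNA synthetases, which load tRNAs, and XPOT, which exports tRNAs from the nucleus, had moderate and even deviations: medians of 0.72 and 0.71, from 0.26 to 0.85 in replicate 3 of 0.5 kPa and from 0.15 to 0.92 in replicate 3 of 4 kPa. AARS was at 260, 252 and 442 on 0.5 kPa, 255, 286 and 467 on 4 kPa and 364, 307 and 301 on 25 kPa. GARS was at 108, 104 and 182, then 119, 116 and 189, then 158, 140 and 145. YARS was at 177, 156 and 277, then 180, 183 and 313, then 238, 206 and 209. Each kept the 3-step layout of PSAT1, with replicates 1 and 2 of the softer gels at the bottom and the replicate 3 libraries at the top.

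SARS was at 279, 262 and 417 on 0.5 kPa, 271, 294 and 471 on 4 kPa and 379, 323 and 331 on 25 kPa. MARS was at 154, 139 and 239, then 161, 170 and 260, then 222, 190 and 189. XPOT was at 241, 241 and 373, then 248, 248 and 319, then 288, 297 and 283. These shared that layout too. NARS was at 280, 293 and 344, then 281, 280 and 325, then 329, 354 and 352, and EPRS, the fused glutamate and proline enzyme, at 205, 218 and 295, then 211, 215 and 236, then 238, 271 and 258. In NARS and EPRS all 25 kPa libraries lay above all 4 kPa libraries, and replicate 3 of 4 kPa deviated by only 0.21 and 0.15. CARS ranged from 60.7 to 118 CPM and WARS from 172 to 330.

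Neighbouring gene groups are given beside the members. These lists too were chosen with earlier results of these data known, so they do not measure how far the library pattern reached. Of 14 other cytosolic synthetases and their scaffold proteins, 2 deviated by over 0.5 in replicate 3 of 0.5 kPa and 1 in that of 4 kPa, with medians of -0.01 and 0.03. TARS was the one in both, with deviations of 0.53 and 0.52. The 17 mitochondrial synthetases had medians of -0.05 and -0.07 and none over 0.5. Thus the 9 listed synthetases with XPOT and these other groups had unlike medians, which the choice of the list in part sets. Their single values overlapped. IARS, a synthetase not among the members, deviated by 0.52 and 0.21. The members NARS and EPRS deviated by 0.26 and 0.21 and by 0.48 and 0.15. Other amino acid transporters (13 tested) had medians of 0.03 and -0.16, but some of them deviated widely. In replicate 3 of 0.5 kPa 3 were over 0.5 (range -0.67 to 0.89), and in that of 4 kPa 2 were (-0.54 to 1.46). The shares of all genes over 0.5 were 5.91% and 6.76%. Other one-carbon and folate enzymes (14 tested) had medians of -0.13 and 0.04 and none over 0.5.

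A list of 18 genes of the ATF6 and XBP1 arms of the unfolded protein response had medians of 0.04 and -0.10 and none over 0.5. HSPA5 (BiP), the endoplasmic reticulum chaperone that marks that response, was at 499, 508 and 531 CPM on 0.5 kPa, 550, 546 and 568 on 4 kPa and 577, 589 and 608 on 25 kPa. It deviated by 0.08 and 0.05, and XBP1 by 0.25 and 0.39. The list ran from -0.54 to 0.26 in replicate 3 of 0.5 kPa and from -0.33 to 0.39 in that of 4 kPa. HERPUD1, a member of the ATF4 list, deviated by 0.48 and 0.53. The 18 genes of the eIF2 kinases, eIF2, eIF2B and the phosphatase had medians of -0.02 and 0.04. By contrast 12 further ATF4 targets had medians of 0.49 and 0.63. Among them INHBE (16 to 78 counts per library) deviated by 1.93 and 1.62. The mitochondrial enzyme PCK2 deviated by 1.48 and 1.56 and ALDH18A1 by -0.23 and -0.31.

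Other measures moved in the same libraries. A list of 17 tested inflammatory genes had medians of 1.05 and 0.98 in the 2 replicate 3 libraries, with IL1A at 2.35 and 2.09 and CXCL8 at 1.53 and 1.35, and the list summed to between 627 and 1210 CPM on 0.5 kPa, between 593 and 1180 on 4 kPa and between 558 and 698 on 25 kPa. The share of counts from mitochondrial DNA was 5.74% in replicate 3 of 0.5 kPa against 5.28% and 5.21% in replicates 1 and 2, and 4.41% in that of 4 kPa against 4.06% and 3.99%. In replicate 2 of 25 kPa it was 4.15%, the lowest of its gel. Gene counts of the 2 replicate 3 libraries, 20609553 and 20236634, lay within the range of the others. Fibroblast markers (5 tested) had medians of -0.19 and -0.10 there, and the list summed to 55.8 to 66.9 CPM on 0.5 kPa, to 57.3 to 62.9 CPM on 4 kPa and to 50.8 to 54.7 CPM on 25 kPa. The part of these measures in the levels of the ATF4 genes was not tested.

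**Figure D4:**
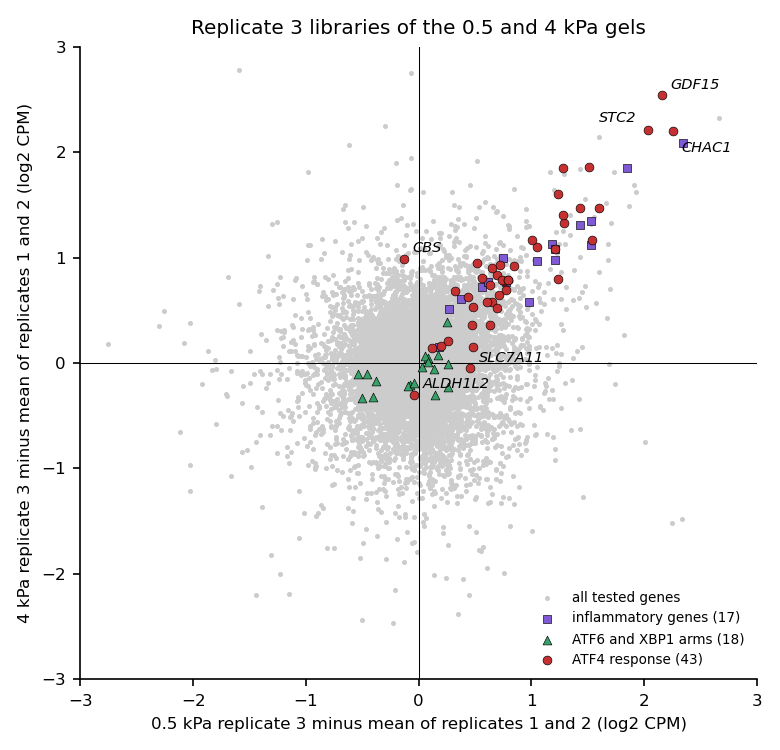
Deviation of each of 16335 tested genes (grey) in replicate 3 of 0.5 kPa (x axis) and replicate 3 of 4 kPa (y axis), both as log2 CPM minus the mean of replicates 1 and 2 of the gel; the axes end at 3. The 43 ATF4 genes (red circles, medians 0.72 and 0.80) and 17 inflammatory genes (purple squares, 1.05 and 0.98) lie mostly in the upper right, and 18 genes of the ATF6 and XBP1 arms (green triangles, 0.04 and -0.10) around the origin.

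The comparison of gels asked whether stiffness changed these genes. With all 9 libraries in one edgeR quasi-likelihood fit and Benjamini-Hochberg adjustment over 16335 genes, 1 of the 43 members passed an adjusted p of 0.05 between 0.5 and 25 kPa, against 1092 genes in all (6.69%). Of those, 500 were higher and 592 lower on 0.5 kPa (3.62% of all genes), or 620 and 432 with upper-quartile scaling. The member was CTH, with a log2 fold change of -0.89 ± 0.20 (SE) for 0.5 minus 25 kPa and an adjusted p of 0.019. Its call was lost under 7 of 23 alternatives, with adjusted p-values from 8.3e-09 to 0.19, including without replicate 1 (0.071) or 2 (0.079) of 0.5 kPa and without replicate 2 (0.077) or 3 (0.065) of 25 kPa. The direction held in all 23, with values from -1.13 to -0.69. The 43 log2 fold changes ran from -0.89 to 0.94, with a median of -0.03 against 0.00 for all genes.

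Between 0.5 and 4 kPa no member passed, against 335 genes (2.05%). By edgeR an unadjusted p under 0.05 was seen for 4 of the 43 members and for 2239 of all 16335 genes. DESeq2 called 1, ATF3, lower on 0.5 kPa. Between 4 and 25 kPa no member passed either, against 147 genes (0.9%). Of those genes, 71 were higher and 76 lower on 4 kPa, or 69 and 28 with upper-quartile scaling. An unadjusted p under 0.05 by edgeR was seen for 3 members and for 2422 of all 16335 genes. DESeq2 again called ATF3 alone, higher on 4 kPa. The ATF3 difference was large without passing in edgeR: -1.69 ± 0.39 for 0.5 minus 4 kPa (adjusted p 0.08) and 1.48 ± 0.38 for 4 minus 25 kPa (adjusted p 0.12). Over the 23 alternatives its adjusted p ran from 3.1e-17 to 0.22 in the first comparison, with 9 calls, and from 1.9e-12 to 0.39 in the second, with 4. In plain levels, all 4 kPa libraries lay above all 0.5 kPa libraries for ATF3 alone among the members (9.06% of all genes), and above all 25 kPa libraries for ATF3 and PPP1R15A (8.97%). All 25 kPa libraries lay above all 0.5 kPa libraries for CTH and SLC7A5 (16.1%) and above all 4 kPa libraries for EPRS and NARS (11.1%), and all 0.5 kPa libraries above all 25 kPa libraries for CBS (14.2%). The standard errors of the members were wide: a median of 0.28 in each comparison, against 0.12 for all genes. The list was drawn from genes that moved in single libraries, which in part sets these standard errors and the few calls. Few calls with all libraries therefore do not show that stiffness left these genes unchanged.

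Without the replicate 3 libraries of 0.5 and 4 kPa the counts were larger. These libraries were left out because of the levels of these genes. That choice in part sets the direction, the number of calls, the standard errors and the p-values of every fit without them. Those values are therefore a description of the remaining libraries and not a test of stiffness. Between 0.5 and 25 kPa, 24 members were then lower on 0.5 kPa and none higher, against 6.01% of 16494 genes called lower and 5.72% called higher. By edgeR 31 members had an unadjusted p under 0.05, as did 4301 of the 16494 genes. The median of the members was -0.30, and that of all genes 0.00. By role, 8 of the 10 synthetases and tRNA export genes, 4 of 7 transporters, 4 of 8 transcription factors, 4 of 7 stress effectors, 3 of 6 serine and one-carbon enzymes and CTH were among the 24.

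The largest of these log2 fold changes was that of CHAC1 at -1.16 ± 0.18 (adjusted p 5.5e-04, edgeR), followed by CTH at -1.13 ± 0.13 (2.1e-05) and by SLC7A5 at -0.75 ± 0.06 (9.9e-07) and ATF3 at -0.75 ± 0.18 (0.011). PSAT1 stood at -0.59 ± 0.07 (7.2e-05), MTHFD2 at -0.65 ± 0.08 (3.4e-05) and ATF4 itself at -0.36 ± 0.09 (0.017). With all libraries the same genes stood at 0.01 ± 0.89 for CHAC1, -0.15 ± 0.41 for PSAT1 and -0.09 ± 0.31 for ATF4, each with an adjusted p of 0.86 or more. In plain levels, all 25 kPa libraries lay above replicates 1 and 2 of 0.5 kPa for 30 of the 43 members (22.1% of all genes) and below them for CBS (19.7%), while both replicate 3 libraries lay above all 25 kPa libraries for 33 (17.0%).

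Leaving out replicate 2 of 25 kPa as well, the library of that gel with the highest members, was added after the data were seen. In that fit, 24 members were lower on 0.5 than on 25 kPa (9.68% of all genes were called lower) and 1, CBS, was higher (8.86%). This fit uses a subset of the libraries of the one before, so the counts are not independent. CHAC1 stood at -0.93 ± 0.13 there, PSAT1 at -0.51 ± 0.06 and ATF4 at -0.25 ± 0.06.

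**Figure D5:**
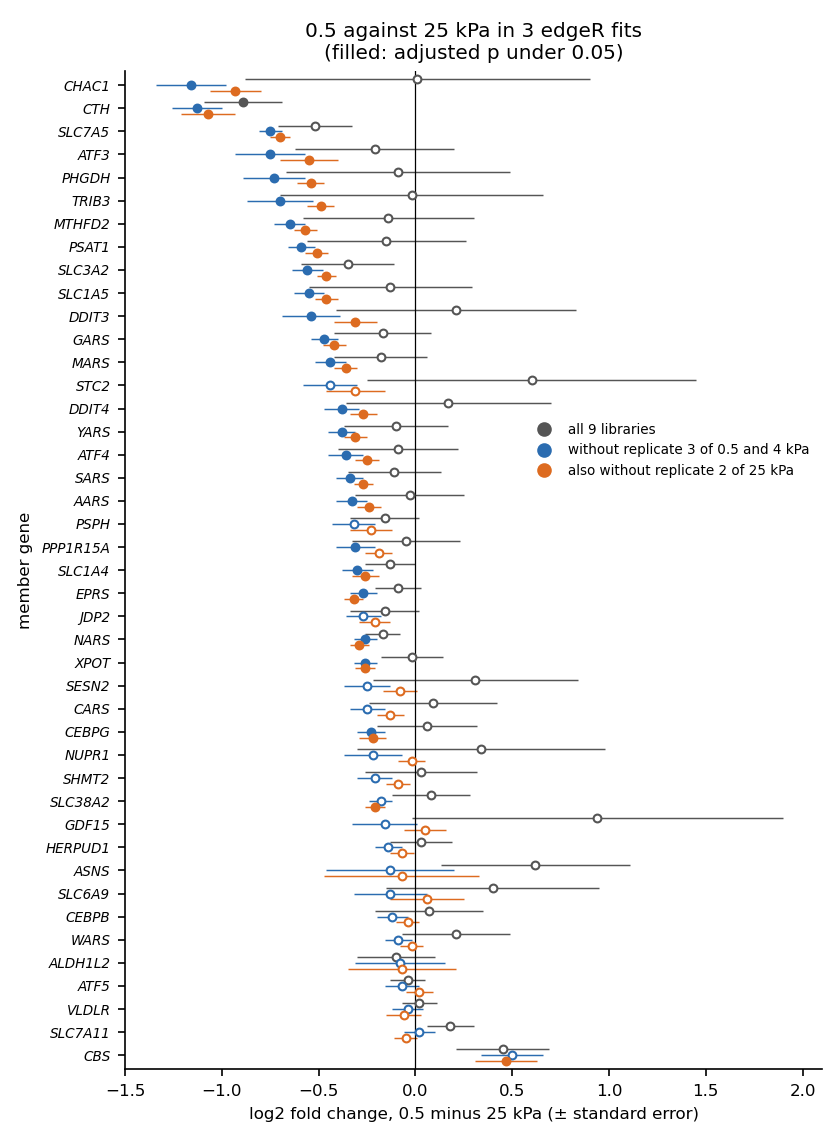
Log2 fold change of each gene (0.5 minus 25 kPa, points, with standard errors as bars) in the edgeR fits with all 9 libraries (grey), without replicate 3 of 0.5 and 4 kPa (blue) and also without replicate 2 of 25 kPa (orange), ordered by the second; filled points have an adjusted p under 0.05. CTH is filled in all 3, CHAC1 goes from 0.01 to -1.16 and -0.93, and 24 of the blue points and 25 of the orange ones are filled. The libraries left out were chosen by the levels of these genes, which in part sets the blue and orange values, bars and fills.

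With all 9 libraries the median log2 fold change of the members was -0.08 for 0.5 minus 4 kPa and 0.05 for 4 minus 25 kPa. Between 0.5 and 4 kPa without both replicate 3 libraries, 4 members were lower on 0.5 kPa (2.63% of all genes) and 2 higher (2.79%). Those lower were ATF3 at -1.92 ± 0.18 (adjusted p 5.6e-06, edgeR), PPP1R15A at -0.71 ± 0.10 (5.6e-04), CTH at -0.58 ± 0.14 (0.022) and SLC7A5 at -0.49 ± 0.07 (4.1e-04). Those higher were CBS at 0.77 ± 0.19 (0.022) and DDIT4 at 0.52 ± 0.11 (0.0084). The remaining 37 did not pass, which does not show that they were alike. Without replicate 2 of 25 kPa as well, 6 were lower (5.92%) and 4 higher (7.19%).

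Between 4 and 25 kPa without both replicate 3 libraries, 20 members were lower on 4 kPa (3.47% of all genes). There were 2 higher (3.32%), ATF3 at 1.17 ± 0.15 and PPP1R15A at 0.40 ± 0.09. All 25 kPa libraries lay above replicates 1 and 2 of 4 kPa for 28 members (20.1% of all genes) and below them for ATF3 and PPP1R15A (18.9%). DDIT4 had the largest of the lower values at -0.90 ± 0.10 (adjusted p 7.4e-05), then CHAC1 at -0.82 ± 0.18 (0.013) and STC2 at -0.67 ± 0.14 (0.013). Without replicate 2 of 25 kPa as well, 24 were lower (7.38%) and 2 higher (5.26%). The comparisons share libraries: both with 25 kPa use the same 25 kPa libraries, so their counts are not independent of each other.

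Of the neighbouring lists, tested with all 9 libraries, 3 of 14 other one-carbon and folate enzymes, 2 of 17 mitochondrial synthetases, 1 of 14 other cytosolic synthetases and 1 of 18 genes of the eIF2 group were lower on 0.5 than on 25 kPa, where 3.62% of all genes were. These were the cytosolic synthetase RARS (-0.29 ± 0.06), the mitochondrial synthetases RARS2 (-0.30 ± 0.06) and IARS2 (-0.26 ± 0.07), the glycine cleavage genes GCSH (-0.48 ± 0.10) and GLDC (-0.60 ± 0.17), SHMT1 (-0.31 ± 0.08) and the phosphatase gene PPP1CB (-0.24 ± 0.07). SLC36A1, a lysosomal amino acid exporter, was higher (0.39 ± 0.10), the 1 call among 13 other transporters, where 500 of all 16335 genes were higher. Lower on 4 than on 25 kPa were 2 of the 14 cytosolic synthetase genes, against 76 of all 16335 genes. They were the scaffold genes AIMP1 (-0.36 ± 0.07) and EEF1E1 (-0.46 ± 0.09). None of the 12 further ATF4 targets passed in any of the 3 comparisons by edgeR, where 6.69%, 2.05% and 0.9% of all genes did. Of 18 genes of the ATF6 and XBP1 arms, DNAJB9 alone passed by edgeR, higher on 0.5 than on 4 kPa (0.42 ± 0.10, adjusted p 0.044). Of the inflammatory genes LIF alone passed, lower on 0.5 than on 4 kPa (-0.48 ± 0.10, 0.018). Between these gels 151 of all 16335 genes were called higher and 184 lower on 0.5 kPa.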

How the data were processed

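RNA of SKOV-3 cells was taken with TRIzol after 3 days on the gels, and poly(A) libraries were sequenced as paired reads. The submitters' processing notes name bcl2fastq, FastQC 0.11.5, HISAT2 2.1.0 and hg38; no source used here names the counting program, the annotation or the use of strand. The deposited gene table holds counts and FPKM that the authors made from them, and the deposited transcript table holds estimated counts. The deposited counts of 9 libraries (19609740 to 21033433 each) were used, and 3 per-sample columns that matched no sample were left out. Estimated counts were summed per gene, for an alternative fit and for the ratios of transcript sums to gene counts given with ASNS. FPKM served for levels per length and for alternatives on log2(FPKM + 1).

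Genes passing edgeR's filterByExpr were scaled by TMM and fitted in all 9 libraries with the robust quasi-likelihood test (R 4.3.3, edgeR 4.0.16), and p-values were adjusted by Benjamini-Hochberg over every gene in the fit; DESeq2 1.42.0 and limma 3.58.1 were alternatives. Deviations used log2 CPM with a prior count of 2. Genes were matched to RefSeq promoters by Entrez ID.

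The members and all lists were chosen with earlier results of these data known. Values are given library by library for members called in any comparison with all libraries or without both replicate 3 libraries, for the 10 with the largest deviation common to both, and for ATF4, ATF3, ASNS, SLC7A11 and FGF21, with up to 3 called genes of each further list. WARS, CARS and others are given by range. Alternatives covered scaling, filter, tool, unit, counting, call rule, the replicate number as a block, and leaving libraries out.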

Additional observations from a re-analysis of the deposited data

How the results depend on the processing

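With 129 pairs of member and comparison under 23 alternatives, 2949 values were computed: 2817 kept their direction and side of the threshold or were called in neither, 7 lost a call (all of CTH), 96 gained one and 29 turned direction. All 29 turned in the fits without several libraries; a further 359 values of uncalled pairs changed sign. Without both replicate 3 libraries, log2 fold changes of 0.5 minus 25 kPa turned negative for DDIT3 (-0.54), CEBPG (-0.23), CHAC1 (-1.16) and DDIT4 (-0.38), and those of 4 minus 25 kPa for ATF4 (-0.32), CEBPB (-0.30), CHAC1 (-0.82), STC2 (-0.67), PHGDH (-0.63), SLC1A5 (-0.45), SARS (-0.28) and YARS (-0.25). Without replicate 2 of 25 kPa as well, they were -0.31 for DDIT3, -0.22 for CEBPG, -0.93 for CHAC1, -0.27 for DDIT4 and -0.21 for SLC38A2 against 25 kPa, 0.19 for CEBPB between 0.5 and 4 kPa, and for 4 minus 25 kPa -0.21 for ATF4, -0.23 for CEBPB, -0.37 for NUPR1, -0.36 for TRIB3, -0.59 for CHAC1, -0.55 for STC2, -0.45 for PHGDH, -0.37 for SLC1A5, -0.17 for AARS, -0.21 for SARS and -0.19 for YARS. The cause was not tested.

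Members called between 0.5 and 25 kPa (1 with all libraries) were 0 by limma on log2(FPKM + 1) with no filter, from transcript sums, with the replicate block and by an unadjusted p under 0.05 with at least 2-fold, 2 with only the 2 gels compared, 24 without both replicate 3 libraries and 25 without 3 libraries. Between 0.5 and 4 kPa (0) they were 1 with no filter on low counts (CTH), by DESeq2, by limma on log2(FPKM + 1) and log2(FPKM + 0.1), from transcript sums, with the replicate block, without robust estimation and by the 2-fold rule, 6 without both replicate 3 libraries and 10 without 3. Between 4 and 25 kPa (0) they were 1 by DESeq2 and the 2-fold rule, 22 without both replicate 3 libraries and 26 without 3. Leaving out 1 library gave 0 to 2, 0 to 1 and 0 to 1: SLC7A5 was gained without replicate 3 of 0.5 or of 4 kPa, ATF3 without replicate 3 of 0.5 kPa, and CBS without replicate 3 of 4 kPa.

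Over all genes, the 1092 calls between 0.5 and 25 kPa became 724, 707 and 382 by limma (log2(FPKM + 1), log2(FPKM + 0.1), no filter), 97 from transcript sums, 215 with the replicate block, 372 by the 2-fold rule, 1936 and 3038 without 2 and 3 libraries, and 367 to 1966 leaving out 1. The 335 between 0.5 and 4 kPa became 684 with no count filter, 165 by limma without a filter, 34 from transcript sums, 191 with only the 2 gels, 146 with the block, 174 by the 2-fold rule, 895 and 2147 without 2 and 3 libraries, and 135 to 584 leaving out 1. The 147 between 4 and 25 kPa (71 higher and 76 lower on 4 kPa) became 479 with no count filter, 97 with upper-quartile scaling (69 higher and 28 lower), 389 by DESeq2, 51, 52 and 33 by limma in the same order, 16 from transcript sums, 41 with only the 2 gels, 16 with the block, 1119 and 2071 without 2 and 3 libraries, and 25 to 302 leaving out 1. The shift from leaving out 1 library was over 1.5 times in the first comparison for each 25 kPa library, replicates 1 and 2 of 0.5 kPa and replicate 3 of 4 kPa, in the second for replicates 1 and 2 of 0.5 kPa and each 4 kPa library, and in the third for all 9. Same-numbered libraries deviated together with correlations from -0.23 to 0.14, so the numbers were not taken to pair them, and the replicate block is given here only. For replicate 3 of 0.5 and 4 kPa the correlation was 0.14. Yet 1.8% of all genes deviated by over 0.5 in both, where 5.91% and 6.76% did in each. Whether these 2 libraries shared a preparation was not tested. With the gel's median as reference, the median deviations of the members were 0.65 and 0.78 in replicate 3 of 0.5 and 4 kPa, and those of replicates 1 and 2 went from -0.31 to 0.00 and from -0.41 to -0.09 on 0.5 kPa and from -0.46 to -0.08 and from -0.36 to 0.00 on 4 kPa. Under RLE and upper-quartile scaling and log2(FPKM + 1) the replicate 3 medians ran from 0.70 to 0.73 on 0.5 kPa and from 0.76 to 0.82 on 4 kPa.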
